A study of Mus musculus with 8 samples.

Results

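Carbonic anhydrases are the enzymes that interconvert carbon dioxide and bicarbonate, and the 8 genes described here are Car1, Car2, Car3, Car4, Car8, Car9, Car12 and Car13. They were chosen by name, from the symbols of the platform annotation, and 12 of the 22626 probe sets tested on the array, which stand for 12393 named genes, read them: 1 each for Car1, Car2, Car9 and Car12, and 2 each for Car3, Car4, Car8 and Car13. RNA came from preparations of intestinal epithelial cells, taken from mice of mixed background (C57BL/6 x 129Sv x FVB), on 8 Affymetrix arrays in 4 groups of 2. The wild type group is called WT, and IKK-AA stands for mice with both copies of Ikkα carrying the AA mutation. The other groups were mice with the tamoxifen-inducible β-cat c.a. alteration, which stabilises β-catenin in epithelial cells alone (bCATca), and mice carrying both (IKK-AA_bCATca). Every group, WT included, received tamoxifen by gavage on 5 days, and cells were taken on day 15 after the first dose. The labels give neither the age of the mice, nor the stretch of intestine, nor the promoter that drives the recombinase. They do not say whether the replicates of a group were separate animals, so p-values here reflect only how far these samples differ from each other. Between the WT arrays, which differ in sex-linked transcripts as given below, that spread is not technical alone. In the other groups its source, whether animals, cell preparations or arrays, is not given and was not tested. Single markers lay far apart between replicates there. On the log2 scale the immune gene Jchain read 3.84 and 8.68 in IKK-AA, but 8.73 and 8.29 in bCATca and 2.34 and 2.72 in IKK-AA_bCATca. Pck1 read 5.94 and 3.72 in bCATca, and 7.30 and 7.83 in IKK-AA_bCATca. The series is about the part of IKKα, a kinase of NF-κB signalling, in the formation of intestinal tumours.

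As background, most carbonic anhydrases carry a zinc ion held by histidines in the active site and supply protons and bicarbonate to transporters, which in the gut serves salt absorption, bicarbonate secretion and the control of cell pH. Members differ mainly in where they sit. Car4 is anchored to the outer face of the apical membrane, Car9 and Car12 span the membrane with their active site outside the cell, and Car1, Car2, Car3 and Car13 are cytosolic, while Car8 has lost the enzyme activity and binds the inositol trisphosphate receptor. In the RefSeq gene table of assembly GRCm38.p6, Car13, Car1, Car3 and Car2 lie in that order on 1 chromosome with 0 other protein-coding genes between them, and the other members lie elsewhere.

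All values are log2 intensities, where a difference of 1 is a 2-fold change, and n = 2 arrays in each group. Differences are between group means, with the standard error (SE) or 95% interval of a linear model (limma) fitted to all probe sets and arrays, and adjusted p-values are Benjamini-Hochberg values over all 22626 probe sets. A probe set was called at an adjusted p under 0.05. A level of 4.03 serves as a rough guide to background. It is the highest reading of Xist, the RNA of the inactive X chromosome, on the arrays where Xist was low (3.56 to 4.03). Y-linked transcripts read 2.02 to 2.56 on the 1 array with a high level of Xist. That array is WT replicate 1, where Xist read 9.18 and the Y-linked Eif2s3y 2.02, while WT replicate 2 read 4.01 and 7.56, like the other 6 arrays. The WT arrays thus differ in sex-linked transcripts and do not hold the same RNA; without WT replicate 1 the probe sets called in bCATca against WT were those of Car4 and Car12 and 1 of Car8. Levels of different probe sets are not compared with each other.

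Over the whole array 7.38% of probe sets were called in bCATca against WT, and other comparisons gave fewer calls, as given below. The 12 markers of intestinal epithelium had summed linear intensities between 40220 and 45160 on all 8 arrays, and none was near background in all groups. The 13 immune cell markers had their lowest summed intensities in IKK-AA_bCATca, 666.4 to 744.9, beside 2224 to 2732 in WT and 1877 to 2145 in bCATca. The IKK-AA arrays lay far apart, at 933.2 and 2749, and spanned the ranges of WT and bCATca. The 19 markers of the small intestinal region summed to 94710 to 98220 in WT, 75900 to 96860 in IKK-AA, 57640 to 76200 in bCATca and 71520 to 84410 in IKK-AA_bCATca. In such bulk samples fewer cells of a type and less RNA per cell cannot be told apart. The part of these shifts in the results below was not tested.

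Of the 12 carbonic anhydrase probe sets, 6 were called in bCATca against WT, 3 higher and 3 lower, which is 5 of the 8 genes; over all probe sets 4.38% were called higher and 3.0% lower. Car12, Car9 and Car8 rose, and Car4 (both probe sets) and Car1 fell. The members were chosen with earlier results of these data known, so their share of calls cannot be weighed against that of the array. The 8 other carbonic anhydrase genes on the array had 0 calls. Without WT replicate 2, and likewise without bCATca replicate 2, 3 probe sets were called, those of Car12 and Car4. In IKK-AA against WT 0 of 12 were called (0.00442% of all probe sets; at an unadjusted p under 0.05 in limma 4 of 12 beside 11.9% of all), and 0 of 12 in IKK-AA_bCATca against IKK-AA (0.00442% of all; at an unadjusted p under 0.05, 0 of 12 beside 7.11% of all). In IKK-AA_bCATca against bCATca 2 of 12 were called higher, both of Car4 (0.76% of all probe sets, 0.217% higher). In IKK-AA_bCATca against WT 1 of 12 was called, of Car8 (0.88% of all, 0.614% higher). The comparisons share arrays: bCATca enters the first with one sign and the comparison with IKK-AA_bCATca with the other, so chance deviations of its 2 arrays act on both.

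**Figure D1:**
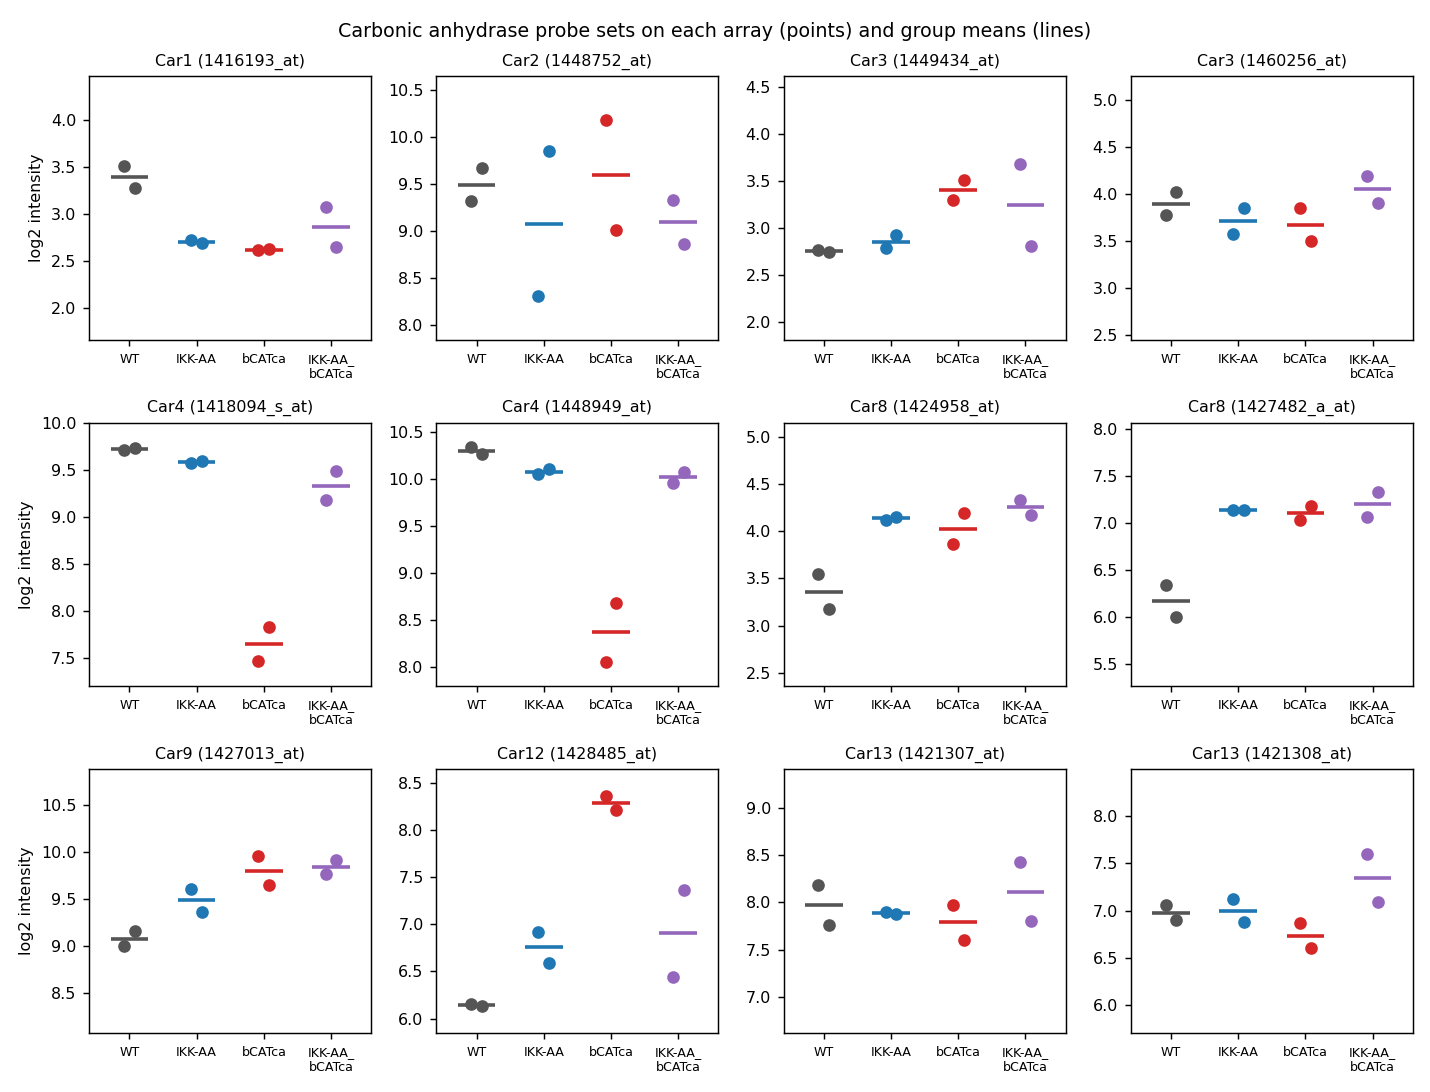
Log2 intensity (vertical axis, the same span of 2.8 in each panel) of the 12 carbonic anhydrase probe sets on every array, with points for arrays and a line for each group mean. Both Car4 panels show bCATca alone at the bottom, Car12 shows it alone at the top, and both Car8 panels show WT alone at the bottom.

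Among the membrane enzymes, Car4 fell with stabilised β-catenin in mice with normal IKKα and stood close to the WT level in IKK-AA_bCATca. Probe set 1448949_at read 10.34 and 10.26 in WT, 10.05 and 10.10 in IKK-AA, 8.05 and 8.69 in bCATca, and 9.96 and 10.08 in IKK-AA_bCATca. The 2 bCATca arrays lay below all 6 others, and those 6 stayed within a narrow band. The difference from WT was -1.93 (95% interval -2.39 to -1.47, 3.81-fold, adjusted p = 0.00194). Probe set 1418094_s_at, whose name marks it as one that can match several transcripts, read 9.72 and 9.73 in WT, 9.57 and 9.60 in IKK-AA, 7.47 and 7.83 in bCATca, and 9.18 and 9.49 in IKK-AA_bCATca. There too bCATca was apart from every other array, and Car4 changed by -2.07 (95% interval -2.46 to -1.68, 4.2-fold, adjusted p = 0.000744). Both calls held under every alternative tried for them (15 for 1418094_s_at, 17 for 1448949_at), with highest adjusted p-values of 0.0111 and 0.0234. The profiles of the probe sets, each centred on its own mean, differed by at most 0.237 on any array. Both read the same gene and the same RNA, so they are no independent replicates.

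Set against bCATca, the Car4 level was 1.65 higher in IKK-AA_bCATca with 1448949_at (95% interval 1.18 to 2.11, 3.13-fold, adjusted p = 0.0135) and 1.68 higher with 1418094_s_at (95% interval 1.29 to 2.07, 3.20-fold, adjusted p = 0.00944), with no overlap of arrays. By p-value these were the 47th and 15th of 22626 probe sets. Both calls ended without bCATca replicate 1 (differences of 1.33 and 1.5, adjusted p = 0.0533 for each), and that of 1448949_at also without either IKK-AA_bCATca array (adjusted p = 0.0946 without replicate 1 and 0.105 without replicate 2). Against WT, IKK-AA_bCATca differed by -0.28 (95% interval -0.75 to 0.18, adjusted p = 0.536) and -0.39 (95% interval -0.78 to -0.0013, adjusted p = 0.317), although its arrays lay below both WT arrays. IKK-AA differed from WT by -0.22 (95% interval -0.69 to 0.24) and -0.14 (95% interval -0.53 to 0.25).

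Whether the β-catenin effect on Car4 differed with the IKKα genotype was tested with the interaction, the effect in IKK-AA mice minus the effect in mice with normal IKKα. Without the AA allele the effect on Car4 was the fall given above, and with it the difference between IKK-AA_bCATca and IKK-AA was -0.060 (95% interval -0.52 to 0.40) for 1448949_at and -0.25 (95% interval -0.64 to 0.14) for 1418094_s_at. The interaction was 1.82 for 1418094_s_at (SE 0.24, adjusted p = 0.0451) and 1.87 for 1448949_at (SE 0.29, adjusted p = 0.0551), so 1 of the 12 member probe sets was called beside 0.239% of all. The call of 1418094_s_at ended without either array of WT, bCATca or IKK-AA_bCATca, with adjusted p-values of 0.0845 to 0.159, with 16 added before log2 (0.0722), without dim probe sets (0.0504) and with the replicate number as a block (0.0799). That of 1448949_at was made with a trended robust prior in limma (1.87, adjusted p = 0.0256) and without IKK-AA replicate 2 (1.895). The size was 1.64 to 2.00 for 1418094_s_at whichever of these 6 arrays was left out. The summed markers of the small intestinal region, given above, reached their lowest value in bCATca too. The bCATca range overlapped those of IKK-AA and IKK-AA_bCATca. Of these 19 markers 0 were called higher and 2 lower in bCATca against WT, beside 5.16% and 3.12% of all genes. The 2 were Slc2a2 and Dpp4, a glucose transporter and a brush border peptidase (-1.24 and -0.81, adjusted p = 0.0170 and 0.0189 in limma). The median difference of the list was -0.60 in that comparison, beside 0.0091 over all genes. It was 0.31 in IKK-AA_bCATca against bCATca and 0.43 in the interaction, beside 0.0031 and 0.0032. The part of this in the Car4 values was not tested.

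**Figure D2:**
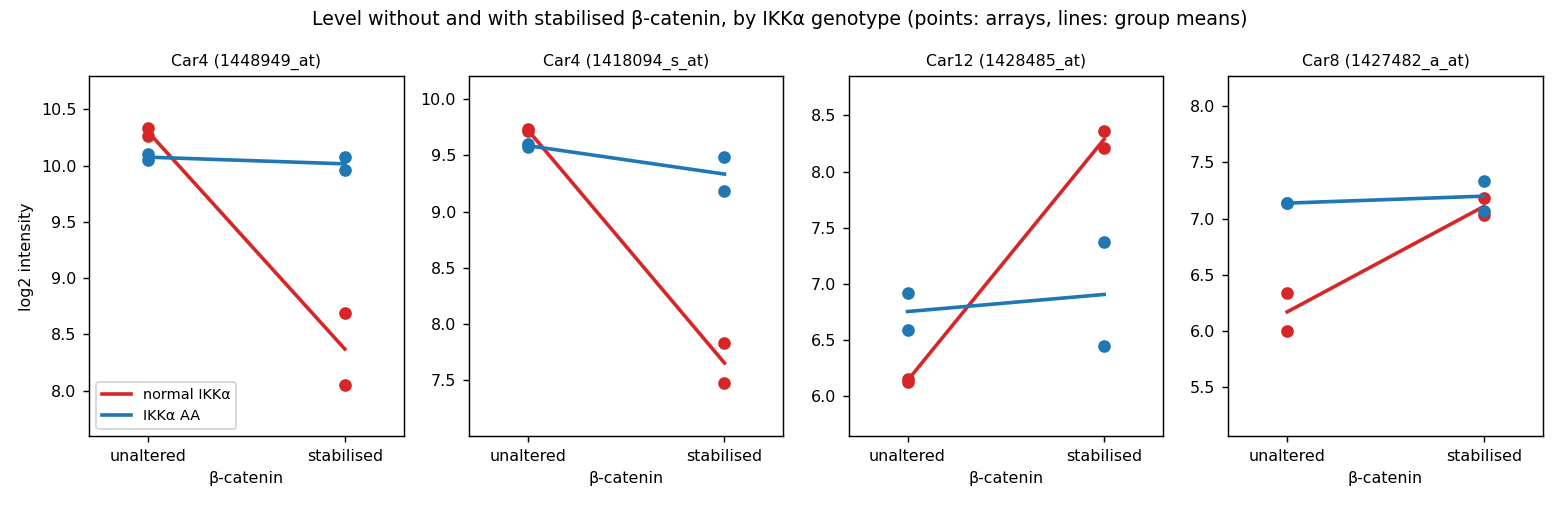
Log2 intensity (vertical axis) of both Car4 probe sets, Car12 and the Car8 probe set 1427482_a_at without and with stabilised β-catenin (horizontal axis), with points for arrays, lines between group means, red for normal IKKα and blue for the AA allele. The red lines change by -1.93 and -2.07 for Car4 and by 2.15 for Car12, while the blue lines change by -0.060, -0.25 and 0.15; for Car8 the WT arrays alone are low.

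Car12, which acidifies the outside of the cell by hydrating carbon dioxide, took the opposite course. It read 6.16 and 6.13 in WT, 6.92 and 6.59 in IKK-AA, 8.37 and 8.21 in bCATca, and 6.44 and 7.37 in IKK-AA_bCATca. The bCATca arrays were the highest, WT the lowest, and the IKK-AA_bCATca arrays lay far apart from each other, around those of IKK-AA. Car12 rose by 2.15 in bCATca (95% interval 1.52 to 2.77, 4.43-fold, adjusted p = 0.00450), a call that held under all 17 alternatives tried (highest adjusted p = 0.0414).

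In IKK-AA_bCATca the Car12 level differed from that of bCATca by -1.38 (95% interval -2.00 to -0.76, adjusted p = 0.0684), which missed the threshold although the arrays did not overlap. Without IKK-AA_bCATca replicate 2, the higher of that pair, the difference was -1.84 (adjusted p = 0.0182), and without either IKK-AA array it passed at the same size (adjusted p = 0.0385). The interaction for Car12 was -1.99 (95% interval -2.88 to -1.11, adjusted p = 0.0921, or -2.46 and 0.0234 without that replicate). IKK-AA against WT gave 0.61 (95% interval -0.0098 to 1.24, adjusted p = 0.422), and IKK-AA_bCATca against WT 0.77 (95% interval 0.14 to 1.39, adjusted p = 0.228).

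Car9, a surface enzyme known as a target of the hypoxia-inducible factors, read 9.0 and 9.16 in WT, 9.61 and 9.37 in IKK-AA, 9.96 and 9.65 in bCATca, and 9.77 and 9.92 in IKK-AA_bCATca. Both WT arrays were below the other 6, and bCATca and IKK-AA_bCATca overlapped. Car9 rose in bCATca by 0.73 (95% interval 0.34 to 1.11, 1.65-fold, adjusted p = 0.0394). That call was close to the threshold and ended without any 1 array of WT, bCATca or IKK-AA_bCATca (adjusted p = 0.0595 to 0.171), with cyclic loess (0.0517) and with the replicate number as a block (0.0679). The difference of IKK-AA_bCATca from WT was similar in size, 0.77 (95% interval 0.38 to 1.15, adjusted p = 0.0849), and IKK-AA_bCATca differed from bCATca by 0.041 (95% interval -0.34 to 0.42, adjusted p = 0.943).

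The promoters of these membrane enzymes are shown because Car9 and Car12 rose together in bCATca while Car4 fell; 3 of the 8 members had an entry in the RefSeq promoter table (GRCm38.p6). Each line holds the 250 bases before the annotated start, 5′ to 3′. Capitals mark matches to a core of the hypoxia response element (ACGTG or GCGTG) or of the TCF/LEF site, through which β-catenin acts (CTTTGA or CTTTGT), searched on both strands with no overlap between the kinds found.
Car4 (chr11:84957504-84957753, + strand): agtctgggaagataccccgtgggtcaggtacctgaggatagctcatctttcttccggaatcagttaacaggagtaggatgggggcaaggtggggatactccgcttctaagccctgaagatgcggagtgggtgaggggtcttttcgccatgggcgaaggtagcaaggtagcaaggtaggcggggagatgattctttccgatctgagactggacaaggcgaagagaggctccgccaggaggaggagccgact
Car9 (chr4:43506776-43507025, + strand): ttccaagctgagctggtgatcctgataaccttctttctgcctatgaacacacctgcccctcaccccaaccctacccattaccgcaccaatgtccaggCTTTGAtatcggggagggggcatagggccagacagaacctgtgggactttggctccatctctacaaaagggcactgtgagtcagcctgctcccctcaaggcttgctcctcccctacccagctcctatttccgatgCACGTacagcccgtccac
Car12 (chr9:66713436-66713685, + strand): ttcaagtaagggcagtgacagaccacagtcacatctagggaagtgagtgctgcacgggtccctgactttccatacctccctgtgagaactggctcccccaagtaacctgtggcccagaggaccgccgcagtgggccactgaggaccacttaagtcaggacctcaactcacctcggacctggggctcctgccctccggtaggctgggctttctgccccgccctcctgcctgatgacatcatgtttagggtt
The Car9 window held 1 match of each kind, CTTTGA beginning 153 bases before the start and ACGTG on the opposite strand beginning 18 bases before it. In the windows of Car4 and Car12 these letters had 0 matches. Such matches are common: 38.6% of all 32851 promoter windows of that length in the table held a hypoxia core and 27.6% a TCF/LEF core. The matches are descriptions of letters and not of binding.

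Car8, the member without enzyme activity, was low in WT and higher in the 3 altered groups, an order that Car9 shared. Probe set 1427482_a_at read 6.34 and 6.00 in WT, 7.14 and 7.14 in IKK-AA, 7.04 and 7.18 in bCATca, and 7.07 and 7.33 in IKK-AA_bCATca. The WT arrays were below all others and the 3 altered groups overlapped or lay close together. All 3 differences from WT share the same WT arrays, for Car8 as for Car9, so chance deviations of these arrays act on each of them. The WT arrays also differ in sex-linked transcripts, as given above, and the part of this was not tested. Car8 rose in bCATca by 0.94 (95% interval 0.55 to 1.32, 1.92-fold, adjusted p = 0.0169) and in IKK-AA_bCATca by 1.03 (95% interval 0.65 to 1.41, 2.04-fold, adjusted p = 0.0372). In IKK-AA the difference was as large, 0.97 (95% interval 0.58 to 1.35), but its adjusted p was 0.226, since only 1 probe set of the whole array was called in that comparison.

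The Car8 call in bCATca ended without WT replicate 2 (adjusted p = 0.125) or bCATca replicate 2 (0.119). The call in IKK-AA_bCATca ended without any 1 array of WT, bCATca or IKK-AA_bCATca (adjusted p = 0.0643 to 0.201) and with the replicate number as a block (0.0767). The dimmer probe set 1424958_at read 3.55 and 3.17 in WT, near background, and between 3.86 and 4.33 in the other groups. With WT near background, its differences from WT are no exact folds: they were 0.67 in bCATca (adjusted p = 0.0584), 0.78 in IKK-AA (0.280) and 0.90 in IKK-AA_bCATca (0.0670). The interaction for Car8, a measure of how far the joint effect fell short of the sum of the separate ones, was -0.88 (95% interval -1.42 to -0.33, adjusted p = 0.188) for 1427482_a_at.

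**Figure D3:**
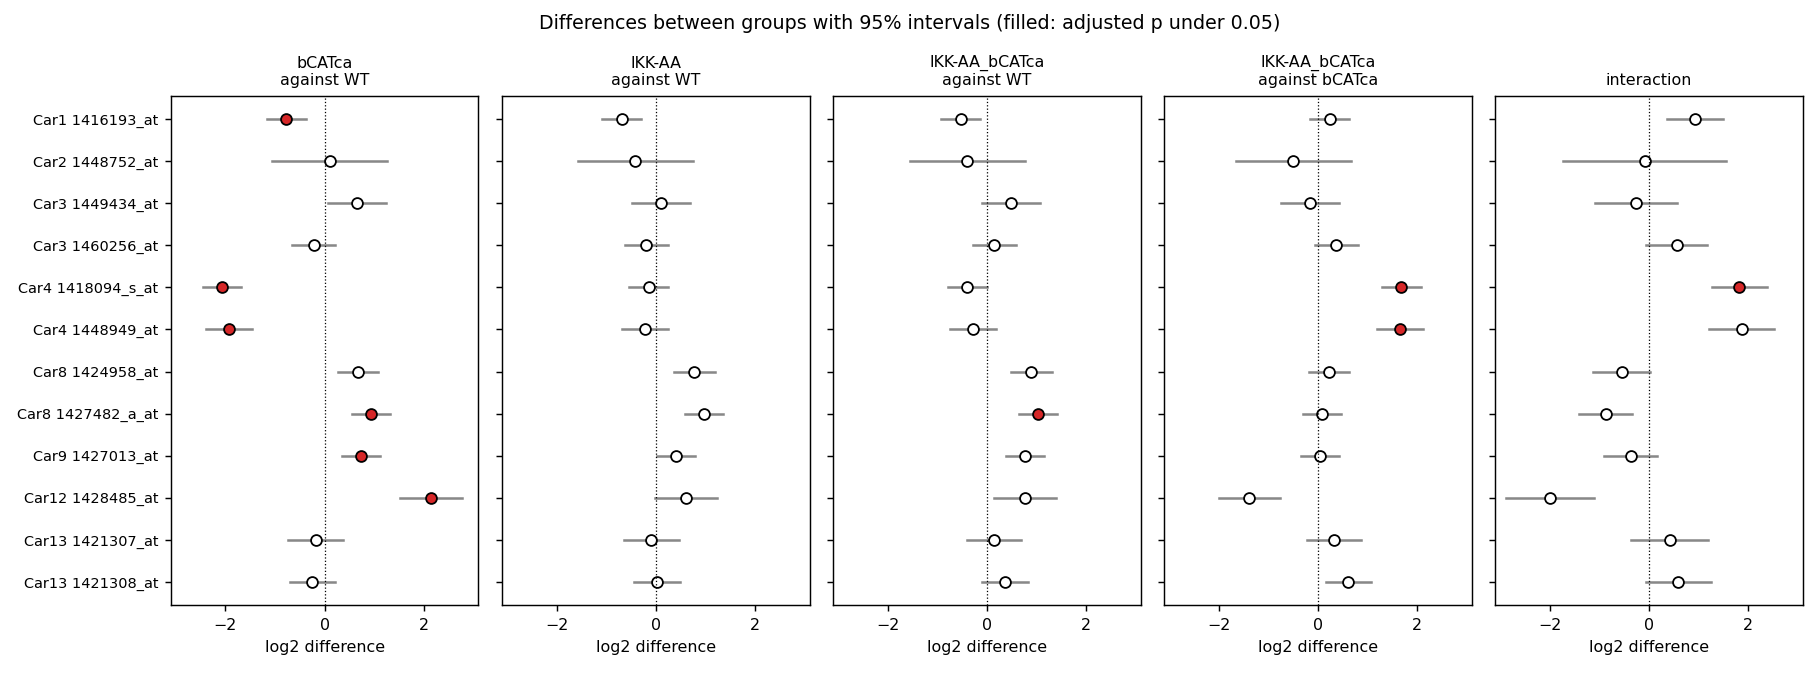
Log2 differences (horizontal axis) with 95% intervals for the 12 carbonic anhydrase probe sets (rows) in 5 comparisons, filled where the adjusted p was under 0.05. Car4 lies at -2.07 and -1.93 in bCATca against WT and at 1.68 and 1.65 in IKK-AA_bCATca against bCATca, Car12 lies at 2.15 and -1.38, and Car2 has the widest intervals.

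The cytosolic enzymes gave 1 call, in Car1, at a level near background. Car1, an enzyme of red cells and colonic epithelium, read 3.51 and 3.28 in WT, 2.72 and 2.69 in IKK-AA, 2.62 and 2.63 in bCATca, and 3.08 and 2.65 in IKK-AA_bCATca. All 8 readings were below the guide of 4.03, so the change of -0.77 in bCATca (SE 0.17, adjusted p = 0.0355) is a difference of readings near background and not an exact fold. The call ended without any 1 array of WT or bCATca (adjusted p = 0.101 to 0.169) and when 16 was added to the intensities before log2 (-0.26, adjusted p = 0.0841). Of 16 measured markers of the colonic region 5 were near background in all groups, and of 8 erythroid markers 6 were. Hba-a1, which encodes a globin chain, read 2.90 to 3.46 over the 8 arrays.

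Car2, the fast cytosolic enzyme, varied most between replicates of the same group. It read 9.32 and 9.67 in WT, 8.31 and 9.85 in IKK-AA, 10.18 and 9.01 in bCATca, and 9.33 and 8.86 in IKK-AA_bCATca. The gap between the IKK-AA arrays was 1.54, larger than the range of the 4 group means, 0.52, and the arrays of every pair of groups overlapped. Its difference in bCATca was 0.10 (95% interval -1.06 to 1.26), an interval that includes changes of about 2-fold either way. These arrays therefore set only wide limits on a change of Car2.

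Car13, another cytosolic enzyme, was clearly detected and was called in none of the 6 comparisons. Probe set 1421307_at read 7.60 to 8.43 and 1421308_at 6.60 to 7.60 over the 8 arrays, with IKK-AA_bCATca replicate 1 the highest in both. In bCATca against WT they differed by -0.18 (95% interval -0.73 to 0.36) and -0.25 (95% interval -0.70 to 0.21). The largest Car13 difference was that of 1421308_at in IKK-AA_bCATca against bCATca, 0.61 (95% interval 0.15 to 1.07, adjusted p = 0.232); 1421307_at gave 0.33 (95% interval -0.22 to 0.87).

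Car3, a slow cytosolic enzyme best known from muscle and fat, was at or near background. Its probe sets read 2.74 to 3.68 and 3.50 to 4.19 and did not move alike, differing by up to 0.778 on an array after centring. In bCATca against WT 1449434_at gave 0.65 (95% interval 0.064 to 1.23, adjusted p = 0.149) and 1460256_at -0.22 (95% interval -0.66 to 0.21, adjusted p = 0.492). Adipoq, a defining marker of fat cells, read 2.14 to 2.38, and 4 of 7 fat markers and 6 of 13 muscle markers were near background in all groups. The fat markers summed to 871.0 to 1226 in WT, 359.8 to 613.0 in IKK-AA, 186.7 to 334.3 in bCATca and 551.1 to 566.5 in IKK-AA_bCATca, and the muscle markers to 273.3 to 325.0 over all arrays; their part in the Car3 values was not tested. Pck1 and Cidec carried most of the fat sum and were called lower in bCATca (-4.26 and -1.32, adjusted p = 0.0221 and 0.0260), and the other 5 fat markers summed to 50.59 to 65.01 over all arrays.

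The genes most like a member were taken as those with the smallest root mean square difference over the 8 arrays after each gene was centred on its own mean, among 12393 genes. For Car4 they were Slc13a2, a citrate transporter of the apical membrane, at 0.258, Noct at 0.305 and Samd8 at 0.306. Slc13a2 had group means of 11.40 in WT, 10.92 in IKK-AA, 9.30 in bCATca and 11.15 in IKK-AA_bCATca. For Car12 they were Rnf149 at 0.231, Igfbp3, an insulin-like growth factor binding protein, at 0.233, and Smo, the signal transducer of the hedgehog pathway, at 0.251, and Smo had group means of 5.54, 5.96, 7.16 and 6.03 in the same order. For Car8 they were Noxo1, Fads1 and Plekhj1 (0.139 to 0.151), for Car9 Ints12, Pck2 and Grn (0.101 to 0.110), and for Car1, near background, Alpk3, Rnf225 and Palm (0.104 to 0.108). These genes were picked for likeness over the same arrays and libraries, so their agreement is a description.

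**Figure D4:**
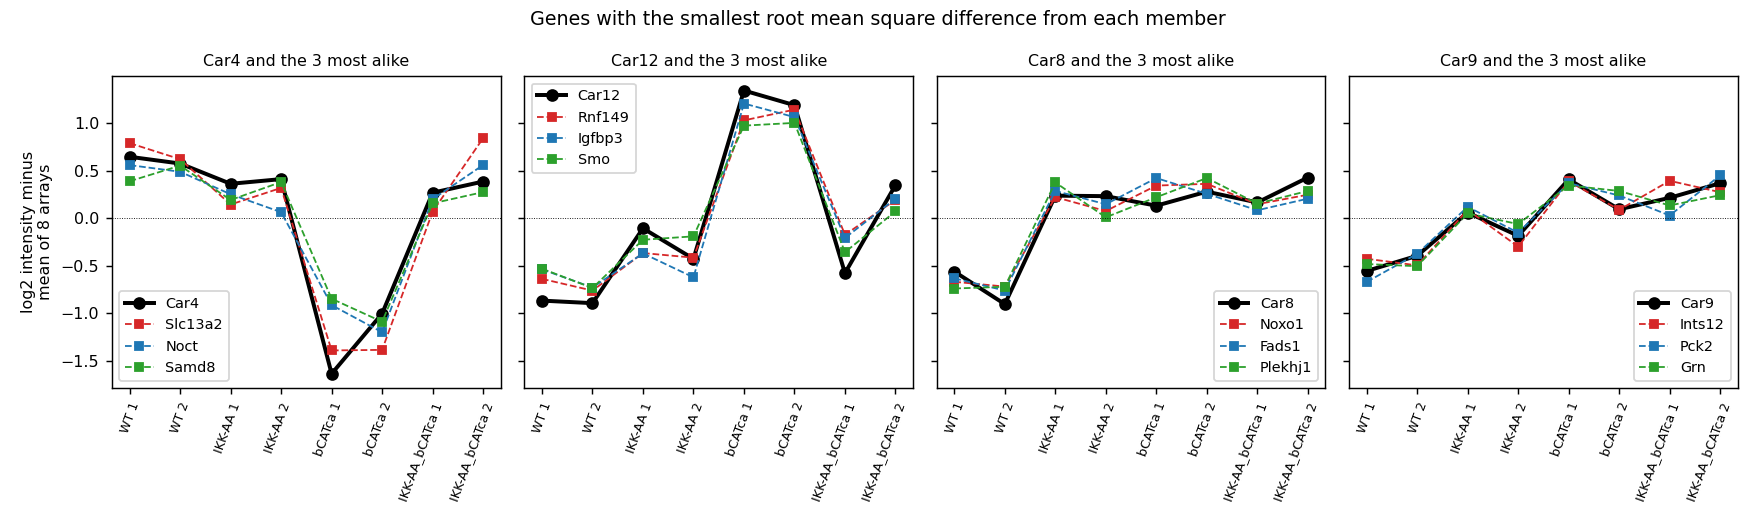
Log2 intensity minus the mean of the 8 arrays (vertical axis) for Car4, Car12, Car8 and Car9 (black) and the 3 genes most like each (coloured), by array (horizontal axis). In the Car4 panel all 4 genes dip on both bCATca arrays, and in the Car12 panel all 4 peak there.

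The 8 other carbonic anhydrase genes on the array, Car5a, Car5b, Car6, Car7, Car10, Car11, Car14 and Car15, had 0 calls in all 6 comparisons, and 3 of them were near background in all groups. Among 28 measured genes of bicarbonate, chloride and proton transport, the partners of these enzymes, 1 rose and 2 fell in bCATca against WT, beside 5.16% and 3.12% of 12393 genes, with a median difference of -0.18 against 0.0091 over all genes. Slc26a3, the apical exchanger of chloride for bicarbonate, read 9.81 and 9.78 in WT, 9.42 and 9.87 in IKK-AA, 8.53 and 8.51 in bCATca, and 9.30 and 9.67 in IKK-AA_bCATca. As with Car4, the bCATca arrays were below all others; Slc26a3 fell in bCATca by 1.28 (SE 0.19, adjusted p = 0.00839). Slc9a3r1, a scaffold of apical transporters, changed by -0.69 (adjusted p = 0.0431), and Atp4a, a proton pump subunit, rose by 0.71 (adjusted p = 0.0306). Atp4a read 4.40 and 4.29 in WT, near background, so its difference is no exact fold. No member of this list was called in the other 5 comparisons.

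Of 25 measured genes of the hypoxia response, 4 rose and 0 fell in bCATca against WT, with a median difference of 0.0073 beside 0.0091 over all genes, of which 5.16% were called higher and 3.12% lower. P4ha2, a collagen prolyl hydroxylase, rose by 1.58 (SE 0.15, adjusted p = 0.00111), the peptide hormone gene Adm by 1.56 (SE 0.27, adjusted p = 0.0148) and the glucose transporter gene Slc2a1 by 1.14 (SE 0.22, adjusted p = 0.0220). The remaining call was Hk2, a hexokinase, named after its values were seen (2.31, adjusted p = 0.0236). Adm read 3.91 and 3.61 in WT, near background, so its difference is no exact fold. Of the 21 genes of this list that were not called, 10 had a difference above 0 and 11 below 0, from -0.81 for Bnip3, a mitochondrial protein of the mitophagy pathway (adjusted p = 0.0890), to 0.59 for Pfkl, a glycolytic enzyme (adjusted p = 0.0665). P4ha2 was the list's only call in IKK-AA_bCATca against bCATca (-1.72, adjusted p = 0.00492, beside 0.654% of all genes called lower) and in the interaction (-1.5, adjusted p = 0.0451, beside 0.137% called lower). It read 5.66 and 5.83 in bCATca and 3.91 to 4.22 on the other 6 arrays, at or near background, so these differences are no exact folds.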

How the data were processed

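RNA of 8 samples (200 ng of total RNA each, labelled with biotin) was measured on 1 Affymetrix array each. The authors deposited 1 linear intensity for each probe set of an array. RMA and affy are named per the submitters' processing notes; their versions are not given in the sources used here. The values were taken as log2 before any test, as the design had foreseen; the return to a linear scale by the authors is read from the values alone. Median intensities lay between 50.9 and 53.8. Arrays carry no read depth, and their number limits the precision.

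Of 22690 probe sets, 64 controls were left out. Symbols came from the platform annotation (20380 probe sets with 1 symbol, 691 with several, 1555 with none) and were updated through Entrez IDs for 20351. With limma 3.58.1 in R 4.3.3, group means were fitted to the remaining 22626 probe sets over all 8 arrays (lmFit and eBayes; 4 residual and 4.41 prior degrees of freedom), tested two-sided with Benjamini-Hochberg adjustment, after a check on simulated data. For the lists, a gene with several probe sets was represented by the one with the highest mean. Figures were drawn with matplotlib 3.10.9, tables made with pandas 2.3.3 under Python 3.11.15. Named were all members with every probe set, up to 3 called genes with the smallest p per list and direction, the 3 genes most like each called member, and single marker genes or list members whose levels are quoted, chosen after their values were seen. Members and lists were chosen with earlier results of these data known, and the guide to background after values were seen. The gene encoding IKKα is not reported here.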

Additional observations from a re-analysis of the deposited data

Results flagged for a closer look

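The test of whether the β-catenin effect differs between mice with and without the AA allele called Car4 with 1 of its 2 probe sets. The interaction for 1418094_s_at was 1.82 on the log2 scale (95% interval 1.27 to 2.37, adjusted p = 0.0451 in limma): the difference was -2.07 between bCATca and WT and -0.25 between IKK-AA_bCATca and IKK-AA. Probe set 1448949_at of the same gene gave 1.87 with an adjusted p of 0.0551. The call of 1418094_s_at ended under 9 of 15 alternatives, with adjusted p-values of 0.0504 to 0.159: without either array of WT, bCATca or IKK-AA_bCATca, with the replicate block, with 16 added before log2 and without dim probe sets.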

How the results depend on the processing

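Differences were computed again with cyclic loess, a second quantile normalisation, 16 added before log2, dim probe sets left out (mean log2 under 5), 1 probe set or the mean of the probe sets per gene, a trended robust prior, the arrays of the compared groups alone, the replicate number as a block, and each array left out; dim probe sets, and probe sets not kept or averaged per gene, have no value under the settings that drop them. Of 1152 such values for 72 differences, 1068 kept direction and side of the threshold, 36 lost a call, 16 gained one and 32 changed sign, 0 of these among the 10 called differences. The causes were not tested.

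With an array left out, the count of called carbonic anhydrase probe sets ranged from 3 to 6 in bCATca against WT, from 0 to 3 in IKK-AA_bCATca against bCATca, from 0 to 3 in IKK-AA_bCATca against WT and from 0 to 2 in the interaction. In IKK-AA_bCATca against bCATca it was 1 with 1 probe set per gene or the mean per gene, where Car4 is counted once. In IKK-AA_bCATca against WT it was 2 with quantile normalisation, 0 with 16 added, 3 with the arrays of the compared groups alone and 0 with the block. In the interaction it was 0 with 16 added, without dim probe sets, with 1 probe set per gene, with the mean per gene and with the block, and 2 with the trended robust prior; with 1 probe set per gene the Car4 probe set that was called is not the one kept. Over all probe sets, the 1669 calls in bCATca against WT became 994 with the block, 1091 with the mean per gene and 306 to 2575 with an array left out. The 172 calls in IKK-AA_bCATca against bCATca became 83 with 16 added, 91 without dim probe sets, 88 with the block, 333 with the compared groups alone and 17 to 512 with an array left out. The 199 in IKK-AA_bCATca against WT became 0 with 16 added, 90 with the block, 948 with the compared groups alone and 12 to 803 with an array left out. The 54 of the interaction became 9 with 16 added, 7 without dim probe sets, 11 with 1 value per gene of either kind, 104 with the trended robust prior, 0 with the block and 0 to 261 with an array left out. The 1 call in IKK-AA against WT became 0 with 16 added, without dim probe sets and with the block, 6 with the trended robust prior and 0 to 399 with an array left out, and the 1 call in IKK-AA_bCATca against IKK-AA became 0 with 16 added, 7 with 1 probe set per gene, 2 with the trended robust prior and 1 to 202 with an array left out.

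The replicate numbers were not taken to pair arrays: the replicate differences of the groups correlated at -0.419 to 0.123 across probe sets. With the block, 5 carbonic anhydrase probe sets were called in bCATca against WT (without Car9) and 2 in IKK-AA_bCATca against bCATca.

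None of the differences that changed sign was called under any setting that turned it. With an array left out, Car2 ranged from -0.48 to 0.68 in bCATca against WT, -1.18 to 0.35 in IKK-AA against WT, -1.08 to 0.080 in IKK-AA_bCATca against bCATca, -0.75 to 0.78 in IKK-AA_bCATca against IKK-AA and -0.85 to 0.68 in the interaction (0.0098 with cyclic loess). Against IKK-AA, IKK-AA_bCATca ranged from -0.056 to 0.37 for Car1, -0.047 to 0.82 for Car3 (1449434_at), -0.069 to 0.19 for Car8 (1427482_a_at), -0.31 to 0.61 for Car12 and -0.081 to 0.54 for Car13 (1421307_at). Against bCATca it ranged from -0.59 to 0.28 for Car3 (1449434_at), -0.040 to 0.22 for Car8 (1427482_a_at) and -0.12 to 0.20 for Car9. The Car3 interaction (1449434_at) ranged from -0.69 to 0.18, and with the mean of its probe sets Car3 gave 0.21 in bCATca against WT. Car13 (1421307_at) ranged from -0.39 to 0.024 in bCATca, -0.30 to 0.12 in IKK-AA and -0.17 to 0.45 in IKK-AA_bCATca, each against WT. In IKK-AA against WT, 1421308_at of Car13 ranged from -0.10 to 0.14 and was -0.076 with cyclic loess and -0.085 with quantile normalisation.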
